A study of Homo sapiens with 6 samples.

Results

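The 4 multi-subunit complexes of the mitochondrial respiratory chain were examined in KOPTK1 cells, a human T-cell acute lymphoblastic leukaemia line, after 48 h with vehicle or with 1 µM PD0332991. Members were the nuclear genes whose symbols start with NDUFA, NDUFB, NDUFC, NDUFS or NDUFV (complex I) or are SDHA to SDHD (complex II). Symbols starting with UQCR (complex III) or with COX4 to COX8 (complex IV) were also taken. Only genes with a probe set annotated to that symbol alone were used, and such a probe set may still detect related transcripts. The rule took 59 of the 19775 genes measured. Of these, 32 belong to complex I, 3 to complex II, 6 to complex III and 17 to complex IV, and the last is the pseudogene COX6A1P1, which encodes no subunit. Subunits whose probe sets carry several gene symbols, such as UQCRH, NDUFC2 and NDUFS8, were not analysed here. SDHB and UQCRFS1 were not among the members either.

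The respiratory chain sits in the inner mitochondrial membrane. Complex I takes electrons from NADH and complex II takes them from succinate, both pass them to ubiquinone, complex III hands them on to cytochrome c, and complex IV reduces oxygen. Complexes I, III and IV pump protons as they do so, and the proton gradient drives ATP synthase. The catalytic cores of complexes III and IV and the proton-pumping core of complex I include proteins made from mitochondrial DNA, while most other subunits come from nuclear genes scattered over the chromosomes. Transcription factors known to bind many of these nuclear promoters include NRF1, the GA-binding protein (an ETS factor) and YY1. Leukaemic T cells draw on the chain for ATP and for the aspartate that nucleotide synthesis needs.

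PD0332991 (palbociclib) inhibits the cyclin-dependent kinases CDK4 and CDK6. The vehicle group and the PD0332991 group each held 3 arrays, labelled by the submitters as replicates 1 to 3, and both groups were the same line grown in RPMI-1640 with fetal calf serum. The series' design text calls them a biological triplicate, and whether each came from its own culture is not stated, so the p-values measure the spread between these arrays. A single leukaemia line stands for the disease here, and no other line was compared.

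The arrays held 54675 probe sets each, and their median intensities lay between 49.12 and 54.31. The T-cell label was checked on 8 markers, all measured, whose summed intensity was 22591 to 24932.3 with vehicle and 28196.5 to 29448 with PD0332991. Of these, 5 passed the test as higher (62.5%). Over all genes 15.6% were called higher and 13.6% lower, and over the genes above the median intensity 25.8% and 23.5%. Intensities of different probes cannot be ranked against each other, so the other lists were compared only between groups. Their sums were 366.05 to 431.12 against 593.74 to 759.54 for 4 B-cell markers (1 higher, CD79A), 246.39 to 261 against 215.1 to 229.74 for 5 myeloid markers (1 lower), 185.43 to 233.7 against 176.49 to 229.82 for 2 erythroid markers (none called), and 1437.42 to 1572.34 against 2080.93 to 2152.68 for 5 stromal and epithelial markers (1 higher, PECAM1). CD79A (means 275 and 543) and PECAM1 (1301 and 1912) made up most of their sums. The means of MS4A1, CD79B and PAX5 lay between 34.9 and 49.5 in both groups. Those of COL1A1, COL1A2, EPCAM and KRT18 lay between 22.8 and 67.5 and none was called. The higher sum of that list was thus the change of PECAM1, and no rise of a stromal or epithelial type is read from it. The part of these marker shifts in the results on the respiratory chain was not tested. In RNA from whole cultures, fewer cells of a type and less RNA per cell cannot be told apart, and each intensity is relative to the other RNAs on its array.

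Respiratory chain subunits were lower with PD0332991 in 16 of 59 members and higher in 0, by limma's moderated test at a Benjamini-Hochberg adjusted p under 0.05, the adjustment taking in all 19775 genes. Over all genes, 13.6% were called lower and 15.6% higher, against 27.1% and 0 of the members. At an unadjusted p under 0.05, 20 members were lower and 4 were higher, where 18.1% of all genes were lower and 20.8% higher. Members had mostly bright probe sets: 52 of the 59 were brighter than the median gene. Among the 9887 genes above that median, 23.5% were called lower and 25.8% higher, and among the 52 brighter members 16 (30.8%) were lower and 0 higher. Fitted on the brighter genes alone, 21 were lower and 4 higher, and with quantile normalization 13 of the 59 were lower and 3 higher, so the count of 0 higher depends on the processing. The decreases of the 16 ran from 13.1% to 35.0%, with a median of 21.9%, and 4 were at least 30%. The median log2 fold change was −0.12 over all members, 0.01 over all genes and 0.02 over the brighter genes.

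The 16 were NDUFS7, NDUFB11, NDUFB7, NDUFA6, NDUFS4, NDUFA7, NDUFA2, NDUFB6, NDUFS1, NDUFA13, NDUFB8 and NDUFA1 of complex I, SDHA of complex II, UQCRC1 of complex III, and COX8A and COX6A1 of complex IV. Each had its 3 PD0332991 arrays below its 3 vehicle arrays. Such separation was seen in 26 members (44.1%) downwards and in 7 (11.9%) upwards, and over all genes in 20.0% and 23.0%. Among the 9887 genes above the median intensity the shares were 32.0% and 35.9%, and among the 52 brighter members 50% and 13.5%. The count of 16 was 10 without vehicle replicate 1 and 10 without PD0332991 replicate 3. It was 8 at an adjusted p under 0.01, 10 when a gene's probe sets were averaged, and 7 of 51 members when probe sets that can match related transcripts (suffixes _s_at and _x_at) were left out.

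**Figure D1:**
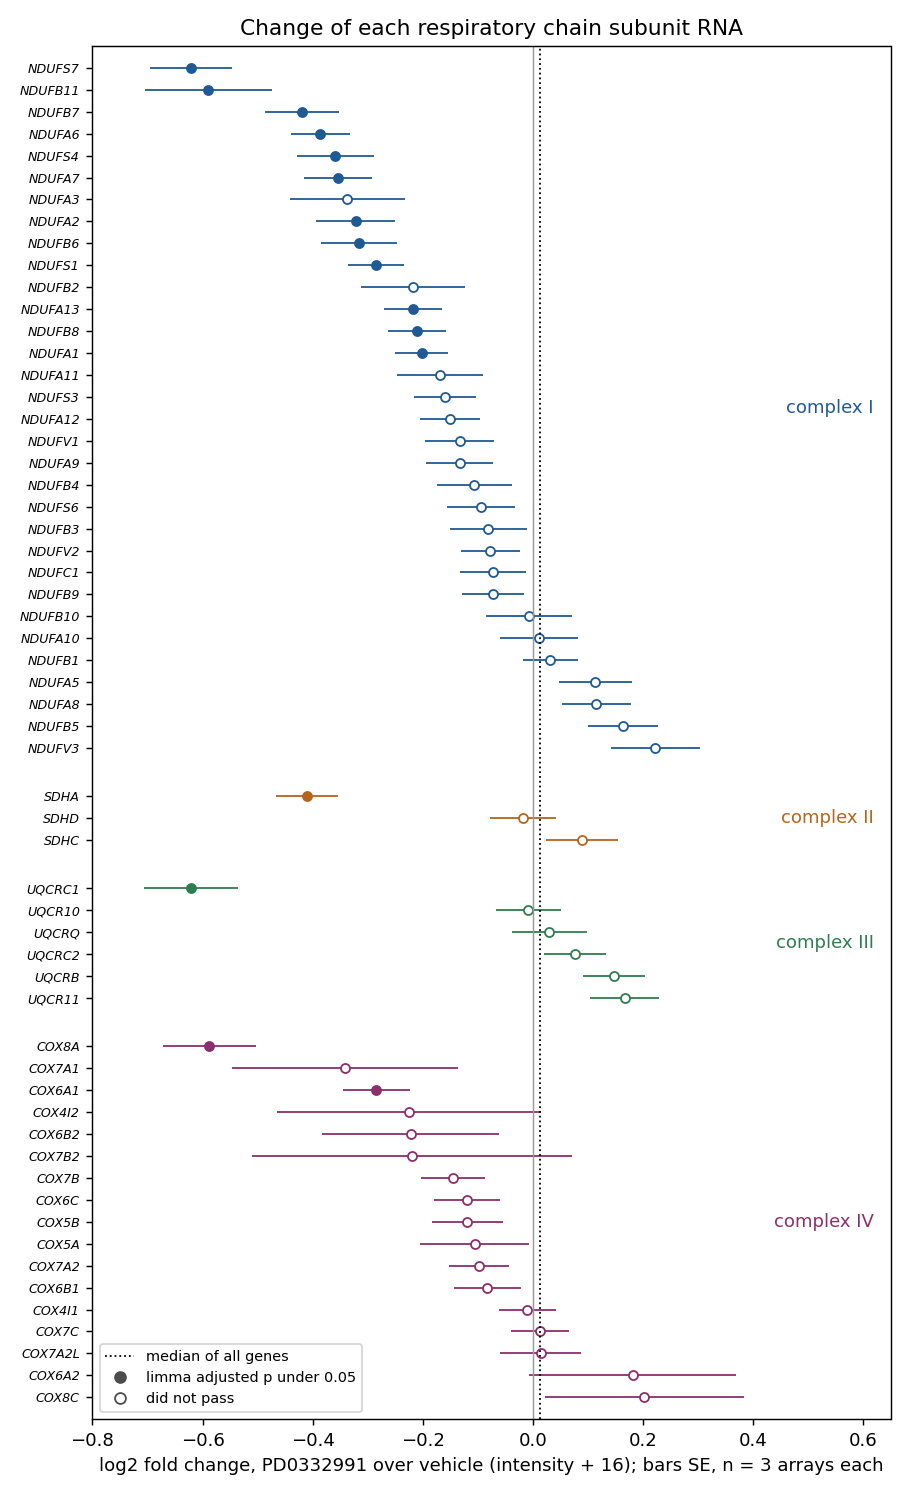
Log2 fold change (PD0332991 minus vehicle, on log2(intensity + 16)) of every member, ordered by complex, with bars for the standard error from limma, 3 arrays per group. Filled points are the 16 members called lower, and no member was called higher.

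In complex I, the NADH dehydrogenase, 12 of 32 members were lower (37.5%, against 23.5% of the genes above the median intensity). Of the 32, 26 lay below 0, and the median log2 fold change was −0.15. The decrease was in genes of both the matrix arm, which holds the iron-sulfur clusters, and the membrane arm. Of the 7 listed nuclear core subunits, which carry the electrons and have counterparts in bacteria, 5 were measured. NDUFS7 and NDUFS1 were lower, and the other core genes measured, NDUFS3, NDUFV1 and NDUFV2, did not pass.

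NDUFS7 carries the terminal iron-sulfur cluster that gives electrons to ubiquinone. Its intensity was 715.28, 731.29 and 772.16 with vehicle and 434.47, 493.47 and 500.46 with PD0332991, the lower values all in the treated group. The means were 740 ± 29.3 and 476 ± 36.3 (SD, n = 3), a change of −0.62 in log2 (SE 0.0749, limma adjusted p = 0.00172), or 35.0% less. The value rests on 1 bright probe set of the _s_at kind. Its other probe set was dim (31.3 and 34.7) and did not pass, at a log2 fold change of 0.10.

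NDUFS1, the largest core subunit, binds several iron-sulfur clusters. It read 1263.93, 1257.16 and 1240.76 with vehicle and 1003.61, 1023.35 and 1052.27 with PD0332991, a narrow spread in both groups. There was a change of −0.29 in log2 (SE 0.0512, limma adjusted p = 0.00822). With its 5 probe sets averaged the adjusted p was 0.215, and it was 0.646 without _s_at and _x_at probe sets.

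NDUFS4 is an accessory subunit of the matrix arm, and mutations in it cause Leigh syndrome. It read 1946.46, 1821.22 and 1708.8 with vehicle and 1448.44, 1455.37 and 1353.63 with PD0332991, so that the lowest vehicle array stood above the highest treated one. There was a change of −0.36 in log2 (SE 0.0705, limma adjusted p = 0.0117), and the adjusted p was 0.204 with the probe sets averaged. All 5 NDUFS genes had separated groups, downwards, as had 20.0% of all genes and 32.0% of the genes above the median intensity. NDUFS3 was at −0.16 (95% interval −0.30 to −0.02) and NDUFS6 at −0.09, neither called.

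Of 12 NDUFA genes, all accessory, 5 were lower (41.7%, against 23.5% of the genes above the median intensity). NDUFA6, a matrix-arm subunit that holds an acyl carrier protein, read 3727.05, 3650.58 and 3841.45 with vehicle and 2808.71, 2929.75 and 2836.39 with PD0332991. It had a change of −0.39 in log2 (SE 0.0534, limma adjusted p = 0.00295), and its other probe set, at a mean of 592 with vehicle and 437 with PD0332991, was lower too (−0.42). NDUFA6 thus had the same direction and call in its 2 probe sets.

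NDUFA7 and NDUFA2 also belong to the matrix arm. NDUFA7 read 1057.46, 1058.71 and 1132.86 against 804.12, 873.7 and 854.55, a log2 fold change of −0.35 (limma adjusted p = 0.00744, and 0.189 with its probe sets averaged). NDUFA2 read 2525.36, 2495.47 and 2623.36 against 1893.23, 2192.66 and 2030.09, a log2 fold change of −0.32 (limma adjusted p = 0.0182). The call of NDUFA2 ended without vehicle replicate 1, vehicle replicate 2 or PD0332991 replicate 3, at adjusted p-values of 0.0582, 0.0533 and 0.0603. A dimmer probe set of NDUFA2 moved further, from 147 to 60.1 (log2 fold change −1.09).

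NDUFA13, also known as GRIM19, and NDUFA1, encoded on the X chromosome, had small decreases with tight groups. NDUFA13 read 1469.19, 1386.77 and 1433.44 against 1219.45, 1246.04 and 1217.27 (log2 fold change −0.22, limma adjusted p = 0.0254). NDUFA1 read 3654.06, 3641.85 and 3648.33 against 3166.04, 3142.32 and 3199.7 (−0.20, limma adjusted p = 0.0246). Leaving out any single array ended the call of NDUFA13 (adjusted p 0.0507 to 0.0892), and leaving out any array but vehicle replicate 3 ended that of NDUFA1 (0.0525 to 0.0840). The change itself stayed downward in those fits. NDUFA3 had a larger estimate, −0.34, but its PD0332991 arrays ranged from 678.98 to 888.39 and it did not pass (limma adjusted p = 0.0578).

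Of 11 NDUFB genes, accessory subunits of the membrane arm, 4 were lower (36.4%, against 23.5% of the genes above the median intensity). NDUFB11, also X-linked, read 1520.55, 1494.85 and 1827.93 with vehicle and 943.38, 1173.3 and 1086.02 with PD0332991. It had a change of −0.59 in log2 (SE 0.116, limma adjusted p = 0.0116), 33.5% less, with a wider spread in both groups than most members. NDUFB7 read 535.09, 498.41 and 574.38 against 393.59, 399.65 and 395.32, treated arrays almost equal to each other, at −0.42 (SE 0.0673, limma adjusted p = 0.00529). NDUFB7's call ended without _s_at and _x_at probe sets, at an adjusted p of 0.893.

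NDUFB6 and NDUFB8 were less firmly placed. NDUFB6 read 4039.72, 3799.95 and 3518.85 against 2952.08, 3100.87 and 3056.02 (log2 fold change −0.31, limma adjusted p = 0.0178). Its call ended without vehicle replicate 1, vehicle replicate 2, PD0332991 replicate 1 or PD0332991 replicate 3 (adjusted p 0.0554 to 0.0635), and its other probe set, not of the _s_at kind, read 0.25 (adjusted p 0.0989). With its probe sets averaged NDUFB6 was at −0.03 (adjusted p 0.723). NDUFB8 read 5084.55, 4974.25 and 5102.21 against 4236.2, 4419.85 and 4447.42 (−0.21, limma adjusted p = 0.0277), and leaving out any single array ended its call (adjusted p 0.0567 to 0.0885). With its probe sets averaged NDUFB8 was at −0.05 (adjusted p 0.548). NDUFB8 was the 1 member with probe sets called both ways, since a dimmer probe set went from 385 to 463 (0.25).

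The 20 uncalled members of complex I lay between −0.34 and 0.22. Groups separated upwards without a call in NDUFA5, NDUFA8, NDUFB5 and NDUFV3. NDUFV3, a small subunit of the NADH-binding module, was highest, at 168.97, 156.13 and 185.49 with vehicle and 191.04, 198.67 and 213.49 with PD0332991 (0.22, limma adjusted p = 0.0904). NDUFC1, the measured NDUFC gene, was at −0.07, and NDUFA10, NDUFB1 and NDUFB10 lay within 0.04 of 0.

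**Figure D2:**
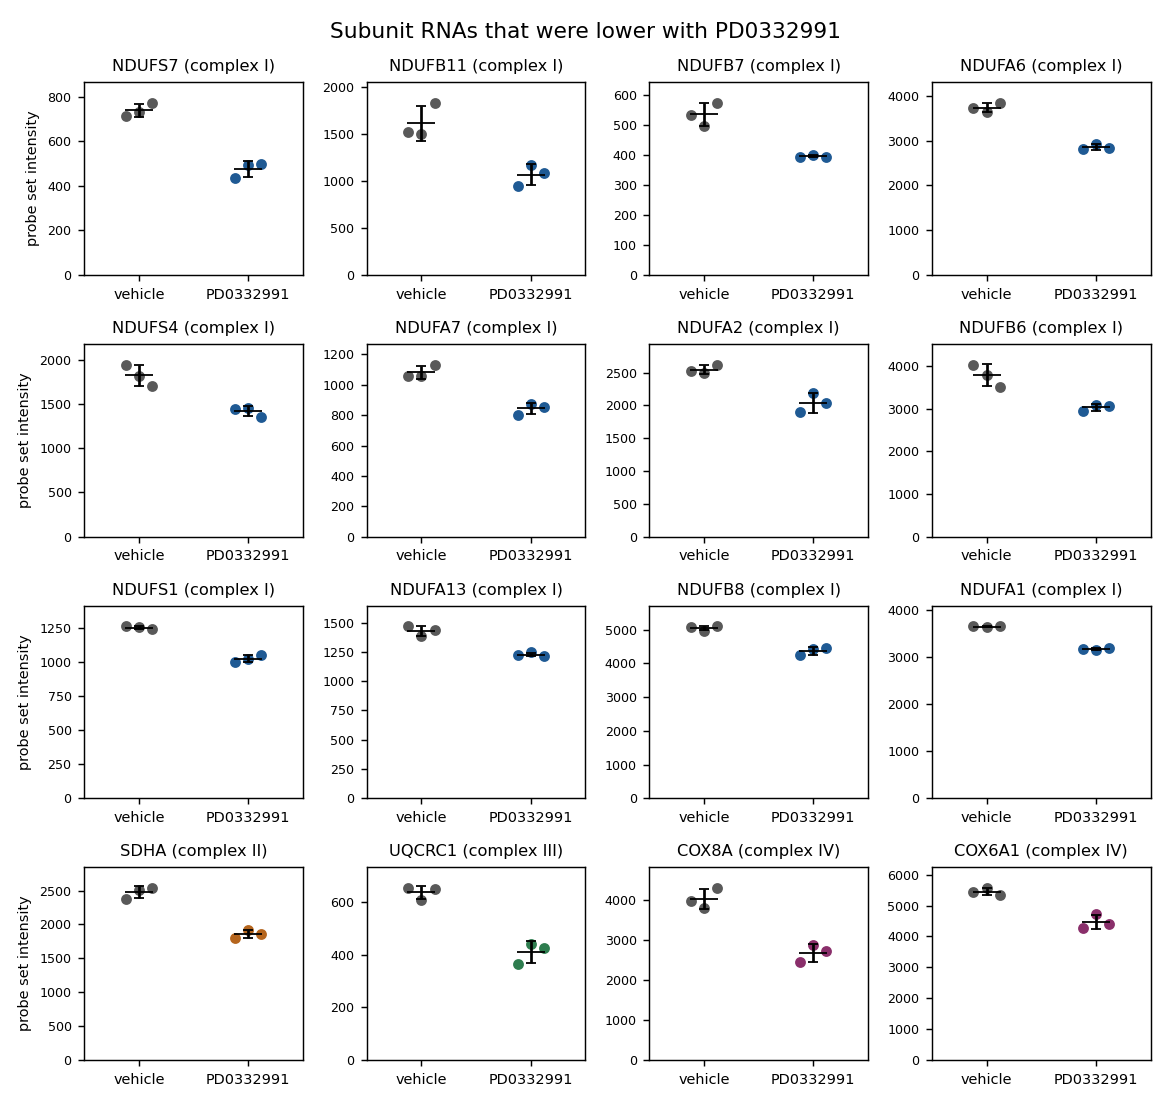
Probe set intensity (linear axis from 0) on each array for the 16 members called lower, 1 panel per gene, with points for the 3 vehicle and 3 PD0332991 arrays and bars for the mean ± SD. In every gene shown the 3 PD0332991 arrays lie below the 3 vehicle arrays.

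Complex II, succinate dehydrogenase, joins the chain to the citric acid cycle and has no mitochondrially encoded subunit. SDHA, its flavin-bearing catalytic subunit, was lower, while the membrane anchors SDHC and SDHD did not pass. SDHB, also named in the rule, was not among the members, so complex II is covered only in part. SDHA read 2381.06, 2514.28 and 2539.66 with vehicle and 1805.63, 1915.3 and 1861.96 with PD0332991. The means were 2478 ± 85.2 and 1861 ± 54.8 (SD, n = 3), a change of −0.41 in log2 (SE 0.0571, limma adjusted p = 0.00302), 24.7% less. SDHA has near-identical pseudogene copies and its probe set is of the _x_at kind, so other transcripts may share its signal.

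SDHC read 2229.82, 2237.55 and 2093.54 against 2228.36, 2468.87 and 2289.91 (log2 fold change 0.09, 95% interval −0.07 to 0.25). Its further probe sets with a mean intensity of at least 100 were at −0.02, −0.03, −0.08 and −0.10, none called. The sign for SDHC thus depends on the probe set. SDHD read 3591.75, 3491.08 and 3357.67 against 3291.06, 3587.32 and 3436.03 (−0.02, interval −0.17 to 0.13). In both anchors the groups overlapped. The SDHA to SDHD ratio on each array, compared after their values were seen, averaged 76.2% of vehicle on the PD0332991 arrays, with no overlap between groups. An exact two-sided permutation test gave p = 0.1, the smallest that 3 arrays against 3 allow.

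Complex III, the cytochrome bc1 complex, had 1 of 6 members lower (16.7%, against 23.5% of the genes above the median intensity) and 4 above 0. UQCRC1, a core protein on the matrix side, read 655.09, 610.15 and 651.35 with vehicle and 365.05, 443.05 and 424.55 with PD0332991. The means were 639 ± 24.9 and 411 ± 40.8 (SD, n = 3), a change of −0.62 in log2 (SE 0.0860, limma adjusted p = 0.00295), or 35.0% less, and UQCRC1 and NDUFS7 had the largest decreases among members.

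UQCRC2, the other core protein and the partner of UQCRC1 in the complex, read 3689.15, 3800.66 and 4015.27 against 4058.67, 4047.02 and 4027.20. Its log2 fold change was 0.08 (95% interval −0.06 to 0.21, limma adjusted p = 0.383). The UQCRC1 to UQCRC2 ratio on the PD0332991 arrays averaged 61.6% of vehicle, and the arrays of the groups did not overlap (exact two-sided permutation p = 0.1, the smallest possible; the pair was chosen after its values were seen). The small subunits UQCR11 (0.17, 95% interval 0.01 to 0.32, limma adjusted p = 0.101) and UQCRB (0.15, interval 0.01 to 0.29, limma adjusted p = 0.109) had separated groups upwards and did not pass. UQCR10 was at −0.01 and UQCRQ at 0.03. The median of complex III was 0.05.

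Complex IV, cytochrome c oxidase, had 2 of 17 members lower (11.8%, against 13.6% of all genes), both ubiquitous isoforms of small nuclear subunits. Of its 11 ubiquitous subunits 18.2% were lower, against 23.5% of the genes above the median intensity. COX8A read 3964.8, 3801.01 and 4297.1 with vehicle and 2435.02, 2859 and 2723.89 with PD0332991. The means were 4021 ± 253 and 2673 ± 217 (SD, n = 3), a change of −0.59 in log2 (SE 0.0846, limma adjusted p = 0.00342), 33.5% less. COX6A1, the non-muscle form of subunit VIa, read 5445.99, 5576.88 and 5342.28 against 4290.53, 4739 and 4413.34 (−0.28, SE 0.0611, limma adjusted p = 0.0164). With its probe sets averaged COX6A1 was at −0.06 (adjusted p 0.727), and its call also ended without vehicle replicate 1, vehicle replicate 2 or PD0332991 replicate 3, at adjusted p-values of 0.0569, 0.0657 and 0.0598.

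The other 9 ubiquitous subunits of complex IV lay between −0.14 and 0.01 and did not pass. COX4I1, the subunit through which ATP regulates the enzyme, read 5260.73, 5148.14 and 5412.46 against 5151.65, 5314.28 and 5246.30 (−0.01, 95% interval −0.14 to 0.12). COX7C was at 0.01 (interval −0.12 to 0.14). Groups separated downwards without a call in COX6C, COX7A2 and COX7B. COX5A and COX5B, which flank the core on the matrix side, were at −0.11 and −0.12, and the median of complex IV was −0.12.

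Complex IV is the complex with the most tissue or condition isoforms, and the 6 on the list were all dim. COX4I2, the lung form, induced at low oxygen, read 81.83, 75.37 and 89.82 with vehicle and 51.96, 108.27 and 54.27 with PD0332991 (−0.22, limma adjusted p = 0.564). The muscle forms COX6A2 (48.11, 65.61 and 34.38 against 61.97, 61.5 and 47.61) and COX7A1 (9.4, 14.11 and 23.57 against 11.56, 3.71 and 11.37) had overlapping groups. So did the testis forms COX6B2 (58.42, 34.24 and 54.12 against 43.2, 34.3 and 39.48) and COX7B2 (18.2, 20.75 and 17.99 against 2.5, 23.26 and 21.29), and COX8C (8.25, 6.86 and 1 against 4.01, 11.7 and 9.92). The pseudogene COX6A1P1 read between 4.75 and 12.4 on every array. Without detection calls these intensities cannot be told from background, and no isoform of the 6 was called in either direction.

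COX7A2L, which joins complexes III and IV into supercomplexes, was at 0.01 (limma adjusted p = 0.914). COXFA4, formerly NDUFA4 and since assigned to complex IV, falls outside the symbol rule. It read 4633.78, 4424.80 and 4106.82 against 4327.62, 4551.10 and 4546.92 (0.03, limma adjusted p = 0.796). Its dim relative COXFA4L2, induced at low oxygen, read 57.75, 56.36 and 88.51 against 78.88, 86.15 and 68.61 (0.19, limma adjusted p = 0.472).

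**Figure D3:**
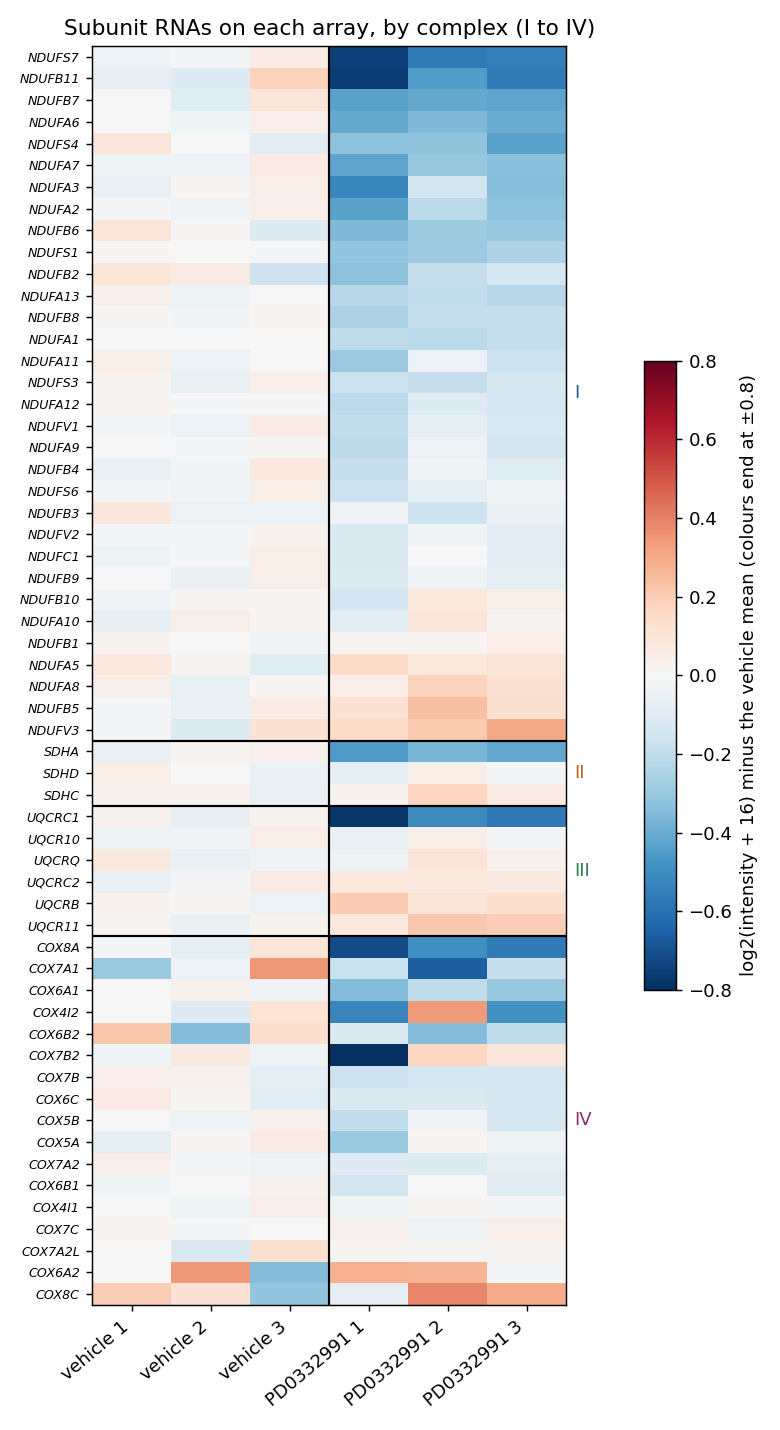
Deviation of each member from its vehicle mean, in log2(intensity + 16), on each of the 6 arrays, with the 58 subunit genes in rows grouped by complex and colours ending at ±0.8. Most rows of complex I are below 0 on the 3 PD0332991 arrays, and rows of complex III are mixed.

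Averaged over its members, complex I stood at −0.23, −0.12 and −0.16 on PD0332991 arrays 1, 2 and 3, in log2 relative to the vehicle mean. The ubiquitous subunits of complex IV stood at −0.19, −0.10 and −0.13, complex II at −0.17, −0.05 and −0.12, and complex III at −0.09, 0.01 and −0.02. PD0332991 array 1 was the lowest in all 4, while the mean over all genes was −0.01, 0.00 and −0.01. The difference between complex I and complex III varied less between the PD0332991 arrays (SD 0.0053) than the mean of complex I (SD 0.0524) or of complex III (SD 0.0471), at −0.14, −0.13 and −0.13 on the 3 PD0332991 arrays and between −0.01 and 0.01 on the vehicle arrays. The complexes are read from the same arrays and their members are not replicates, so no p is given. Without PD0332991 replicate 1, the member count was 12 and the median of complex IV moved from −0.12 to −0.07. The median of complex II, over 3 genes, changed sign without that array, to 0.01.

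**Figure D4:**
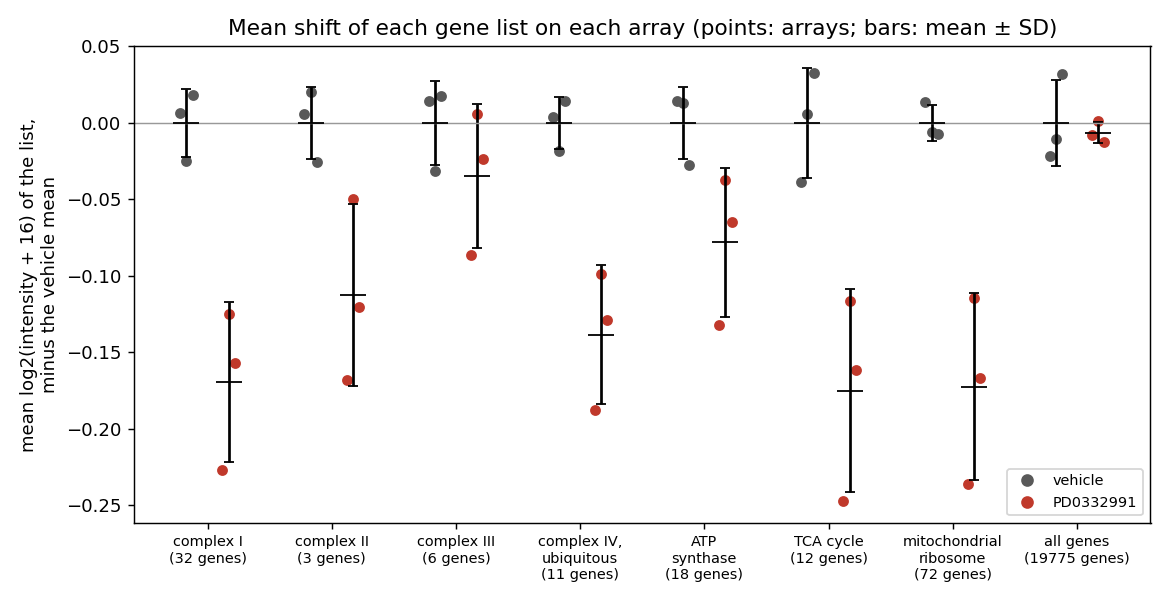
Mean deviation from the vehicle mean, in log2(intensity + 16), of each complex and each other mitochondrial list on each array, with points for arrays and bars for the mean ± SD of 3 arrays. On every PD0332991 array complex I lies below complex II, complex III and the ubiquitous subunits of complex IV, and all genes stay near 0. Citric acid cycle enzymes (−0.25, −0.12 and −0.16) and mitochondrial ribosomal proteins (−0.24, −0.11 and −0.17) lie close to complex I on PD0332991 arrays 1, 2 and 3.

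Precision set what could be called. Among the 52 brighter members the 95% interval of the log2 fold change reached a median of 0.15 (0.12 to 0.28) to either side of the estimate. Of the 36 brighter members that did not pass, 17 had an interval lying wholly within 0.25 of 0, and for the other 19 a change of that size was not bounded by these arrays.

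Probe sets of the same member did not always move together. There were 113 probe sets for the 59 members, and 28 members had 1 only. Of the 33 further probe sets with a mean intensity of at least 100, 19 had the sign of the brightest, 6 were called higher and 2 lower, with p-values adjusted over all 41091 probe sets. Over all these probe sets 12.8% were called higher and 12.1% lower. The higher ones were dimmer sets of COX7B (74.5 with vehicle to 194 with PD0332991, log2 fold change 1.21, limma adjusted p = 3.2e-04), UQCRB (58.8 to 144 and 452 to 578), UQCRC2 (184 to 299), NDUFB1 (318 to 397) and NDUFB8 (385 to 463). COX7B's bright set was at −0.14, a gap of 1.36 within the gene. The intensity filter used the mean over all 6 arrays. The sets of COX7B (74.5 to 194), UQCRB (58.8 to 144) and NDUFA2 (147 to 60.1) reached 100 only through the group where they were high. Counts among the 33 thus rest partly on the change itself, and the shares over all probe sets had no such filter. Which transcripts the dimmer sets detect was not tested.

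**Figure D5:**
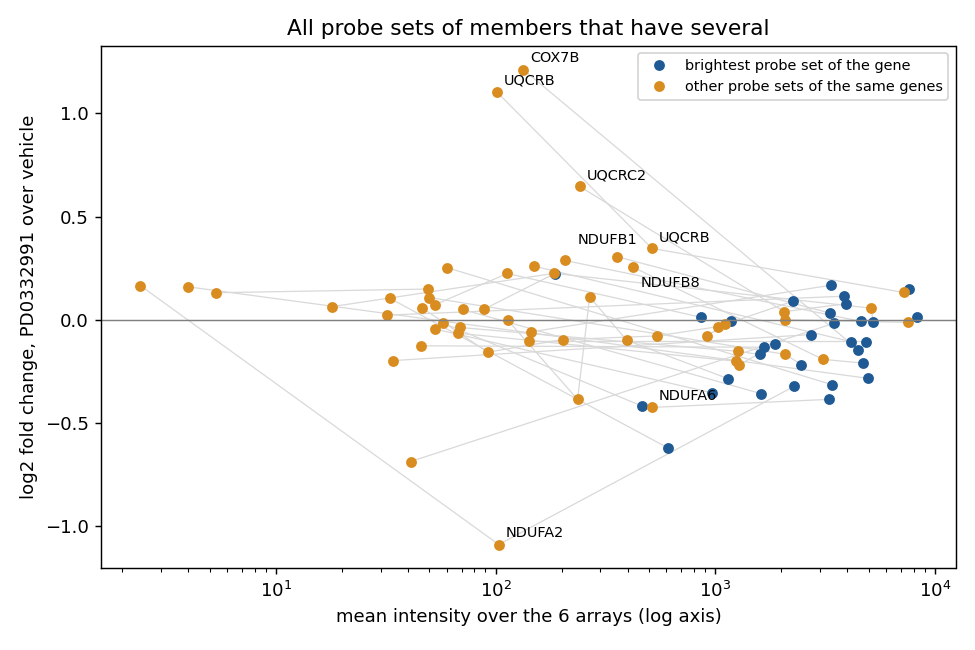
Log2 fold change (PD0332991 over vehicle) of every probe set of the members with several, against its mean intensity over the 6 arrays on a log axis, with lines joining the probe sets of a gene. Further probe sets that passed the test are named, and those of COX7B, UQCRB, UQCRC2 and NDUFA2 lie farthest from 0.

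Promoter sequences were available from RefSeq (GRCh38.p14) for 51 of the 59 members, as 250 bases before to 50 after the annotated start. They are shown for the member with the largest decrease in each complex, in lower case with matches to 3 motifs in capitals on either strand: the NRF1 motif (a palindrome of GCGC half-sites with 1 free base), CCGGAAG (ETS factors, among them the GA-binding protein) and AAGATGGC (YY1). Each runs 5′ to 3′ on the gene's strand and ends 30 bases after the start, and the intervals are NDUFS7 at chr19:1383657-1383936 (plus strand), SDHA at chr5:218070-218349 (plus), UQCRC1 at chr3:48609617-48609896 (minus) and COX8A at chr11:63974370-63974649 (plus).
NDUFS7: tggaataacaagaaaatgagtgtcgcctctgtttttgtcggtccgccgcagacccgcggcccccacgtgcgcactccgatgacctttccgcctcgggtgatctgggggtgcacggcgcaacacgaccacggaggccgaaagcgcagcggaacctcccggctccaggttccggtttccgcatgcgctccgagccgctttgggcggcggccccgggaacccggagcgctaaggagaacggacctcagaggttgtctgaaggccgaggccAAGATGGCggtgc
SDHA: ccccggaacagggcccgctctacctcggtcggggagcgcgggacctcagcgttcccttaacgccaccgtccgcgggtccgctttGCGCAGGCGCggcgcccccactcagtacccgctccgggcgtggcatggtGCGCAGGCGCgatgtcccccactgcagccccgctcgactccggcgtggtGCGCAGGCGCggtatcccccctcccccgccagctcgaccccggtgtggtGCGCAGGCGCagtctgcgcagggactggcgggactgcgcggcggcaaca
UQCRC1: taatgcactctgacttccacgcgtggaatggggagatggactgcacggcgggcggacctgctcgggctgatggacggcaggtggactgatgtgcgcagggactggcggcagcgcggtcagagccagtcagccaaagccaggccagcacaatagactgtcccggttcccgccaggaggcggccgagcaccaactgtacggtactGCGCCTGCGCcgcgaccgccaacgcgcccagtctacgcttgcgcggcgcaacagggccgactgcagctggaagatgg
COX8A: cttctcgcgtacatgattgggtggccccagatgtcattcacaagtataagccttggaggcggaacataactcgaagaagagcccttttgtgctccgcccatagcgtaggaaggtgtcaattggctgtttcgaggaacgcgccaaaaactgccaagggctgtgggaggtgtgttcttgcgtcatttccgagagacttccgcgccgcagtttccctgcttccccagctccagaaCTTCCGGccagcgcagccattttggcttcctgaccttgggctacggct

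The SDHA window held the NRF1 motif 4 times, first bases at −166, −117, −68 and −19 from the start (the start base being 0). UQCRC1 held it 1 time, at −47, COX8A held CCGGAAG at −18 on the opposite strand, and NDUFS7 held AAGATGGC at 17. In the printed windows SDHA and UQCRC1 thus shared the NRF1 motif, and NDUFS7 and COX8A held other motifs.

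Over the members with a promoter, the NRF1 motif was in 12 of 51 (23.5%), against 9.67% of the 15843 protein-coding genes whose promoters were searched over the same length. On the same base of genes, the perfect NRF1 palindrome was in 3 (5.88% against 1.99%), CCGGAAG in 13 (25.5% against 16.5%) and AAGATGGC in 8 (15.7% against 4.66%). The E2F motifs TTTGGCGC and TTTCCCGC were in 2 and 3 (3.92% against 1.09%, and 5.88% against 2.65%). Both strands were searched, and 1 overlapping pair was found, of the NRF1 motif with itself in NDUFA8.

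Set beside the calls, the NRF1 motif was in 2 of the 16 members called lower (SDHA and UQCRC1) and in 10 of the 35 others. CCGGAAG was in 6 of 16 and 7 of 35. AAGATGGC was in 6 of 16 (NDUFA6, NDUFA7, NDUFB8, NDUFS4, NDUFS7 and UQCRC1) and in 2 of 35 (NDUFA3 and NDUFA9). Those 2 are among the 10 uncalled members with separated groups downwards. All 8 matches began 10 to 25 bases after the start. By complex, the match was in 7 of 30 promoters of complex I and in 0 of 14 of complex IV. Of the 16 called members, 12 belong to complex I. Within complex I the match was in the called NDUFA6, NDUFA7, NDUFB8, NDUFS4 and NDUFS7 and in the uncalled NDUFA3 and NDUFA9. The part of complex membership in this split was not tested. In UQCRC1 the match runs past the printed window. These matches are descriptions of the letters, the split was noticed after the calls were known, and binding was not measured.

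Among the factors that build the complexes, genes were called in both directions. Over all genes 13.6% were lower and 15.6% higher, and over the genes above the median intensity 23.5% and 25.8%. Of 15 complex I assembly factors, 4 were lower and 4 higher (26.7% each, median −0.04), near the shares of the brighter genes. The largest called changes were in ECSIT (−0.57), NUBPL (−0.42), an iron-sulfur cluster carrier, and NDUFAF5 (0.34). Of 4 complex II factors, SDHAF1 was lower (−0.36) and SDHAF2, which helps attach the flavin to SDHA, was higher (0.41). Of 6 complex III factors, 1 was lower and 3 higher. UQCC3 read 429.29, 376.23 and 411.71 against 165.10, 168.76 and 163.41, 2.32-fold lower (log2 fold change −1.21), while UQCC1 (0.27) and TTC19 (0.25) were called higher. UQCC1 was at 0.03 with its probe sets averaged and at −0.16 without _s_at and _x_at probe sets, and its call ended without vehicle replicate 1, vehicle replicate 2 or PD0332991 replicate 3 (adjusted p 0.0671 to 0.0731). The call of TTC19 ended without any single array but vehicle replicate 3 (adjusted p 0.0891 to 0.105), and that of NUBPL without any single array (0.0573 to 0.122).

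Of 22 complex IV factors, 4 were lower (18.2%) and 3 higher (13.6%), with a median of −0.06. PET117 read 1032.67, 1002.53 and 994.48 against 537.61, 612.97 and 552.30 (−0.82). COA1 read 1128.26, 1094.35 and 1125.82 against 638.41, 675.79 and 682.96 (−0.73), but its other probe set was higher (0.78), so its direction depends on the probe set. COX19, a copper-delivery factor, was higher (0.62).

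Among mitochondrially encoded genes of the chain, 6 of 11 were measured, 1 lower and 1 higher (16.7% each). Over all genes 13.6% were lower and 15.6% higher, and over the genes above the median intensity 23.5% and 25.8%. ND6, the gene of the light strand, read 1638.60, 1563.99 and 1368.75 against 1004.39, 849.07 and 966.89 (log2 fold change −0.69). ND2 read 5469.28, 5536.57 and 5069.68 against 7447.59, 8181.23 and 8001.44 (0.55). Nuclear copies of mitochondrial DNA can share these probes, so the values are uncertain. COX1, COX2, COX3 and ND4 did not pass.

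Other gene groups of the organelle were set beside the complexes. For scale, 13.6% of all genes were called lower and 15.6% higher, and of the genes above the median intensity 23.5% and 25.8%. Of 18 ATP synthase subunits, 1 was lower and 0 higher (median −0.10), namely ATP5F1C (−0.21), which read 0.32 (adjusted p 0.0353) without _s_at and _x_at probe sets. Its call also ended without vehicle replicate 1, vehicle replicate 2, PD0332991 replicate 1 or PD0332991 replicate 3 (adjusted p 0.0797 to 0.114). Of 12 citric acid cycle enzymes measured, 5 were lower and 0 higher (median −0.16). IDH2, the mitochondrial NADP-linked isocitrate dehydrogenase, read 2402.35, 2489.20 and 2765.91 against 1413.67, 1901.72 and 1729.68 (−0.61), followed by DLST (−0.39) and SUCLA2 (−0.38). Of 72 mitochondrial ribosomal protein genes, which build the ribosome that translates the mitochondrially encoded subunits, 25 were lower and 1 higher (median −0.18), led by MRPS26 (−0.71), MRPL39 (−0.70) and MRPL48 (−0.69). The nuclear subunit genes CYC1 and NDUFAB1 and the carrier CYCS, outside the symbol rule, had 0 of 3 called (median −0.12).

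Of 15 regulators of respiratory gene expression, 6 were lower (40%) and 2 higher (13.3%). Over all genes the shares were 13.6% and 15.6%, and over the genes above the median intensity 23.5% and 25.8%. NRF1, the activator of many respiratory promoters, read 523.58, 514.99 and 543.74 with vehicle and 258.10, 267.00 and 269.33 with PD0332991 (log2 fold change −0.95, SE 0.0536, limma adjusted p = 1.0e-04), and 4 of its 5 probe sets were lower. TWNK, the mitochondrial DNA helicase, was higher (0.38). Among the 6, PPARGC1A, a coactivator of mitochondrial biogenesis, had means of 17.8 and 8.13, intensities that cannot be told from background, and its call ended without vehicle replicate 1, vehicle replicate 3 or PD0332991 replicate 2 (adjusted p 0.0534 to 0.0754). The other called genes, named after their values were seen, were GABPA (−0.30) and GABPB1 (−0.33), which form the GA-binding protein, PPRC1 (−0.36), TFAM (−0.35), which packages mitochondrial DNA, and TFB2M (0.34). TFAM read 1902.58, 1772.10 and 1742.11 against 1450.42, 1330.80 and 1465.86, with no overlap. Whether these changes bear on the subunits was not tested.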

How the data were processed

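Total RNA of 6 KOPTK1 samples, 3 per group, was biotin-labelled and hybridised to Affymetrix human arrays, per the labels' protocols. The authors deposited linear probe set intensities, summarised and scaled by a method that was not given in the sources used here. Array trimmed means were 287, 291 and 294 with vehicle and 285, 283 and 282 with PD0332991, so they were close but lower on every PD0332991 array. No further scaling was applied in the main fit, and this difference between the groups was left in the values. The median log2 fold change of the members, −0.12 in the main fit, was −0.06 with quantile normalization and −0.15 with median centring. Of all values, 25.5% lay below 16. Values were taken as log2(intensity + 16), which understates changes of dim genes, and all fold changes are on that scale. Symbols came from the platform annotation, updated by gene ID through RefSeq: 41091 probe sets had 1 symbol, 1801 several and 11721 none here, besides 62 control sets. Each gene took its brightest 1-symbol probe set. limma 3.58.1 in R 4.3.3 was fitted on all 19775 genes and 6 arrays, group as the only term, with Benjamini-Hochberg adjustment and a threshold of 0.05, after a test on simulated data. No batch labels were found. Members, lists and alternatives were chosen with earlier results of these data known. Named were all called members, the isoforms, COXFA4, COXFA4L2, COX7A2L, and up to 3 called genes per list, others as stated. Matplotlib 3.10.9 drew the figures.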

Additional observations from a re-analysis of the deposited data

How the results depend on the processing

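Against 16 members called lower and 0 higher in the report, the counts were 21 and 4 among brighter genes only, 20 and 3 with an intensity trend, 19 and 1 with a pseudocount of 64, 18 and 2 with array weights, 13 and 3 with quantile normalization, 13 and 1 with 75th percentile centring, 10 and 3 with probe sets averaged, 7 and 2 without _s_at and _x_at probe sets, and 8 and 0 at an adjusted p under 0.01. With an array left out they were 10 to 15 and 0 to 1. The median over all members was −0.060 with quantile normalization, −0.075 with 75th percentile centring and −0.149 to −0.081 with an array left out. For complex I it was −0.11 with either scaling, −0.086 without _s_at and _x_at probe sets and −0.175 to −0.114 with an array left out. For complex II it was 0.037 with quantile normalization, −0.35 with probe sets averaged and −0.049 to 0.013 with an array left out. For complex III it was 0.10 with quantile normalization, with 75th percentile centring and with probe sets averaged, and 0.035 to 0.071 with an array left out. For complex IV it was −0.049 with quantile normalization and −0.151 to −0.071 with an array left out. Signs turned without _s_at and _x_at probe sets for ATP5F1C (0.32), COA1 (0.78), NDUFB6 (0.25), NDUFS7 (0.10) and UQCC1 (−0.16). COX7A2L and COXFA4, both near 0, turned with median centring (−0.018 and −0.0034) and with an array left out (−0.043 to 0.075 and −0.017 to 0.069). The dim COX7B2 (−0.22) ran from −0.41 to 0.13 with an array left out. The causes were not tested, apart from the fewer samples or members that some settings leave.

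At an adjusted p of 0.05, NDUFA6, NDUFB11, SDHA, UQCRC1 and COX8A, 5 of the 16, kept their call in every alternative fitted for them, and the other 11 lost it in at least 1. This was a lighter trial for some: NDUFB11, SDHA, UQCRC1 and COX8A have 1 probe set, so averaging could not change them, and NDUFB11, SDHA and COX8A have no probe set outside the _s_at and _x_at kinds. NDUFB11 (adjusted p 0.0116) did not pass at 0.01. With the replicate number as a block, 11 members were called lower and 0 higher. Same-numbered arrays correlated at 0.0033, 0.0758 and 0.0826 in their deviations, and different-numbered arrays between −0.0793 and 0.0224. These values do not settle whether the numbers pair the samples, and the main fit did not pair them. With 3 arrays per group and 4 residual degrees of freedom, and with intensities near background for the dim isoforms, changes as small as those of most uncalled members could not be resolved.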
